A study of Homo sapiens with 4 samples.

Results

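The response to KPT-9274 was described within the cultures labelled KMS11. Their 2 arrays, of 4 in the series, were chosen by the cell line and agent given in the labels: 1 array of untreated cells and 1 array of cells exposed to KPT-9274 for 48 h. The other 2 arrays hold the same pair of conditions in cells labelled OPM2 and serve for comparison. KMS11 and OPM2 are names of established human myeloma lines, and the labels call every sample myeloma cells and give no other genotype. The labels state neither the dose of KPT-9274, nor a vehicle for the untreated cultures, nor how long those cultures were kept. The compound and the time in culture therefore cannot be told apart. With 1 array per condition there was no replicate, so no test was possible, and every value, fold and count below describes these arrays only. In whole cultures, fewer cells of a kind and less RNA per cell cannot be told apart either.

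KPT-9274 is a small molecule known to inhibit PAK4, a p21-activated kinase that acts on the actin cytoskeleton and in growth signalling, and NAMPT, the enzyme that recycles nicotinamide into NAD. Myeloma cells often depend on salvage NAD and on MYC, PIM and NF-kB signalling. Amino acid shortage and other stresses are known to be read by the kinases of the integrated stress response, which act through the transcription factor ATF4 on amino acid transporters, amino acid synthesis and tRNA synthetases. NF-kB controls genes of its own inhibitors, of which TNFAIP3 (A20) and NFKBIA (IkB-alpha) are the classical ones.

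Values are log2 signals, so that a difference of 1 is 2-fold. Of 22393 genes with a single symbol, 10855 read above background on at least 1 KMS11-labelled array, where background is the level under which 95% of 392 olfactory receptor genes read. It lay at 6.45 on the untreated and 6.56 on the treated KMS11-labelled array, and at 6.81 and 7.65 on the OPM2-labelled arrays, so changes in OPM2-labelled cells are more often bounds. A value under background was set to it, and the change is then given as a bound. Where the backgrounds differed enough to turn the sign of that bound, the change was set to 0. In OPM2-labelled cells SPRY1, at 7.62 untreated and 6.17 treated, was set to 0 in this way. Such changes can draw the list medians of OPM2-labelled cells towards 0. Among the olfactory receptor genes the treated minus untreated difference had a median of 0.14 and an SD of 0.329, and 4 of the 392 differed by 2-fold or more: 3 higher and 1 lower. Where a gene had several transcript clusters above background on these arrays (84 genes), the range of their changes had a median of 0.24, and it reached 1 or more for 6 genes. Over all transcript clusters the arrays correlated with a Pearson r of 0.978.

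The label was checked against the genes of plasma cells and of other blood lineages. Of 28 measured plasma cell identity genes 15 read above background on a KMS11-labelled array. PRDM1 and TNFRSF17, which define plasma cells, read under background on both KMS11-labelled arrays, while the OPM2-labelled untreated array gave 12.47 and 10.68. SDC1, another defining surface protein, read under background on all 4 arrays. MAF, which the KMS11 line is known to carry in a translocation, read 5.68 and 5.86 in the KMS11-labelled cells, under background, and 12.11 and 10.87 in the OPM2-labelled cells. FGFR3, known to be translocated in both lines, read 7.99 and 7.39 in the KMS11-labelled cells and 13.55 and 12.45 in the OPM2-labelled cells. These signals disagree with the KMS11 label, and the MAF signal does not match the OPM2 label either, since OPM2 is not known for a MAF translocation. Both cultures are therefore called by their labels, as KMS11-labelled and OPM2-labelled, and a comparison between them is one of cultures whose identity is in doubt.

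Some genes of erythroid, basophil and myeloid cells were high in the KMS11-labelled cultures, while others were dim or under background. Of the measured genes, 17 of 18 erythroid transcription factors and 18 of 30 basophil and mast cell genes read above background on at least 1 array. So did 17 of 34 myeloid granule and monocyte genes, of which SPI1 and CEBPA were dim, at 7.38 and 7.08 untreated. GATA1, the master regulator of erythroid, megakaryocytic and basophil genes, read 15.90 untreated and 15.81 treated, against 5.24 and 5.49 in OPM2-labelled cells. RHAG, a red cell membrane protein, read 14.37 and 15.14, and MS4A3, a basophil and granulocyte progenitor gene, read 16.14 and 15.60. HDC, which makes histamine, read 15.02 and 14.82, and FCER1A, the alpha chain of the IgE receptor, read 13.37 and 13.39. LYZ, a myeloid secreted enzyme, read 13.44 and 13.66, while MPO, ELANE and CD14 read under background. None of the 6 measured globin genes and their chaperone was above background on any array. The summed signal of the 18 measured erythroid transcription factors was 17.25 untreated and 17.08 treated on the log2 scale, against 14.24 and 13.84 in OPM2-labelled cells. That of the basophil and mast cell genes was 17.77 and 17.47, against 15.09 and 15.86. The brightest members weigh most in such a sum, and some were bright in both lines. On the untreated arrays LDB1 read 15.86 in KMS11-labelled and 13.56 in OPM2-labelled cells, and SRGN 15.39 and 15.03. Of 18 T and NK cell markers 3 read above background (PRF1, CD4 and NKG7), as did 5 of 13 B cell markers and 3 of 17 stromal and epithelial markers. GATA1, RHAG, MS4A3, HDC and FCER1A thus differed far less between the 2 KMS11-labelled arrays than between the lines, which does not hold for every member of the lists.

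**Figure D1:**
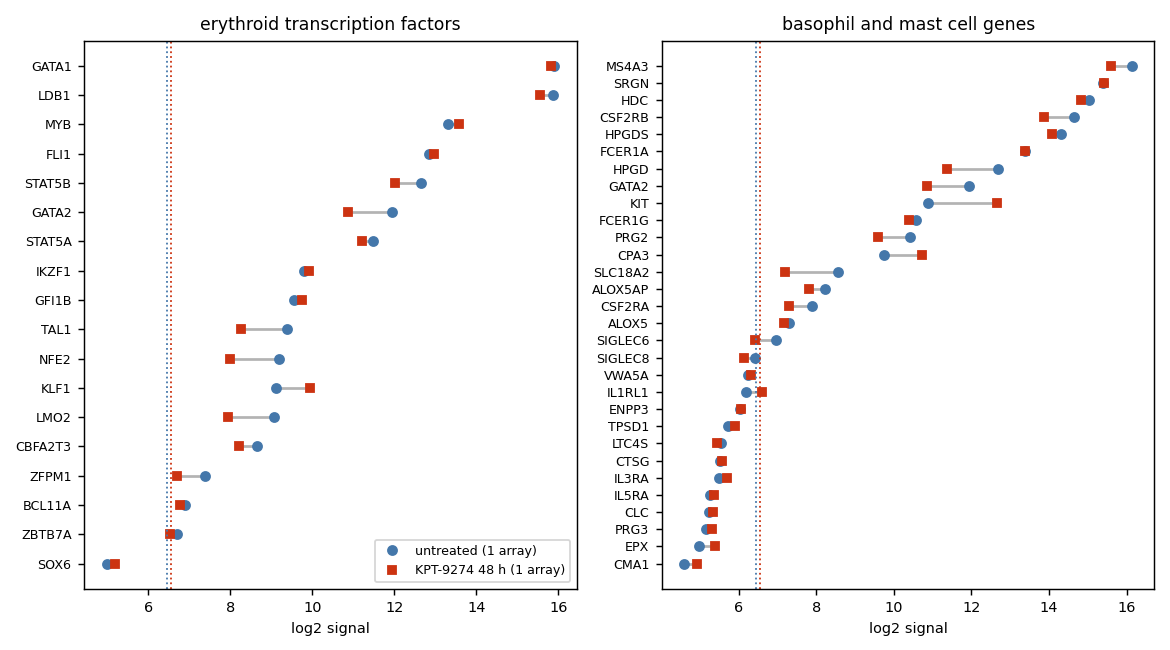
Log2 signal of the measured erythroid transcription factors (left) and of the basophil and mast cell genes (right) on the untreated (circles) and treated (squares) KMS11-labelled arrays, 1 array each, with each array's background as a dotted line. GATA1 sits at 15.90 and 15.81 and MS4A3 at 16.14 and 15.60, and KIT is the widest rightward step, from 10.88 to 12.66.

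Of the 10855 genes above background, 256 (2.36%) read at least 2-fold higher and 688 (6.34%) at least 2-fold lower on the treated array, with a median change of -0.04. A change of 4-fold or more was seen for 19 higher and 79 lower genes. Above background on both arrays were 10013 genes, of which 248 (2.48%) were higher and 661 (6.6%) lower by 2-fold or more. In OPM2-labelled cells the same measure gave 2.99% higher and 7.54% lower. The balance of higher and lower genes depended on scaling: with quantile normalization the count was 421 higher and 459 lower.

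The widest difference was that of TNFAIP3, which read 7.64 untreated and 13.27 treated, 49.5-fold higher. ARRDC3, an arrestin-like adaptor of receptor turnover, read 7.14 and 11.09. CREBRF, a regulator of CREB3 factors and of metabolism, read 7.90 and 11.40. These 3 genes are the ones at least 8-fold higher, and none of them is a lineage gene on the marker lists. At the other end SLC7A11, the cystine transporter that feeds glutathione synthesis, read 12.65 and 8.26, 21-fold lower. SLC7A5, the large neutral amino acid transporter, read 13.65 and 10.02. SLC38A1, a glutamine transporter, read 11.59 and 8.06. ADAMTS1, a secreted metalloprotease, read 10.53 and 7.11. XRCC2, a DNA repair gene, read 11.30 and 8.26. The 3 characterised genes with the largest decrease thus all encode amino acid transporters. Outside the naming rule, and seen after the values, the antisense RNA gene CHRM3-AS2 read 11.77 and 7.22.

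**Figure D2:**
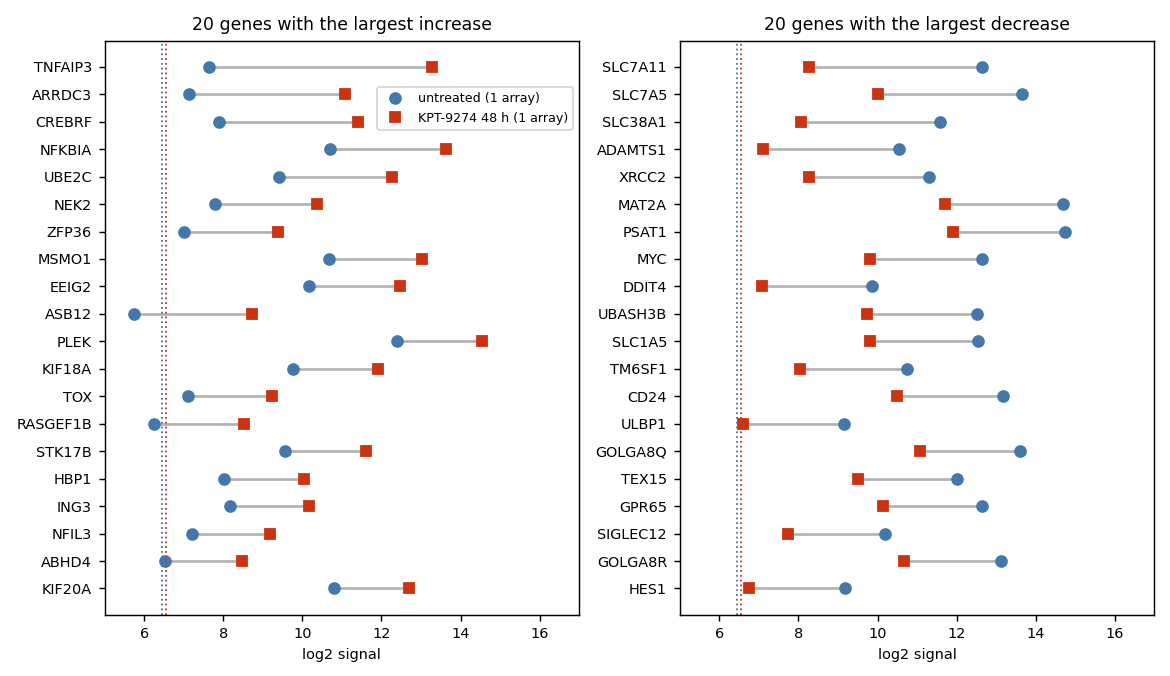
Log2 signal of the 20 genes with the largest increase (left) and the 20 with the largest decrease (right) in KMS11-labelled cells, leaving out small RNAs and uncharacterised loci; circles are the untreated array, squares the treated array, and dotted lines each array's background. TNFAIP3 spans 7.64 to 13.27 and SLC7A11 12.65 to 8.26; ASB12 and RASGEF1B read under background when untreated, so their changes are bounds.

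The known targets of the compound came first among the questions the treatment raises. PAK4 read 6.88 and 7.10, just above background on both arrays, a change of 0.22. None of the 14 genes of the PAK list above background (of 17 measured) differed 2-fold, and their median change of -0.08 turns to above 0 with quantile normalization or cyclic loess. NAMPT read 7.71 untreated and 9.05 treated, a change of 1.34, against 0.73 in OPM2-labelled cells. Of 24 genes of NAD synthesis and use above background NAMPT was the 1 gene at least 2-fold higher, beside 2.36% of all genes. PNP, a purine nucleoside phosphorylase, was the 1 gene at least 2-fold lower, from 11.67 to 10.32, beside 6.34% of all genes. NAPRT, which makes NAD from nicotinic acid, read 7.65 and 7.76, and NMNAT1, which makes NAD in the nucleus, 8.49 and 8.65. The remaining 22 genes of the list stayed within 2-fold.

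Inhibitors of NF-kB stood at the top of the higher genes. Beside TNFAIP3, a ubiquitin editing enzyme that restrains the pathway, NFKBIA read 10.71 untreated and 13.62 treated, a 7.52-fold difference. NFKB1, the p105/p50 subunit, read 10.52 and 11.61. NFKB2, the p100/p52 subunit, read 7.74 and 8.67, and REL 10.75 and 11.55, both short of 2-fold. Of 20 genes of NF-kB subunits and feedback above background (22 measured), those 3 were at least 2-fold higher, beside 2.36% of all genes, and 0 lower, with a median change of 0.25. RELA read 9.05 and 9.29 and NFKBIB 8.34 and 8.52, so the list did not shift as a whole. In OPM2-labelled cells TNFAIP3 was already high, at 12.62 untreated and 12.52 treated, and NFKBIA read 11.34 and 10.65. There 0 of the list's genes differed 2-fold in either direction and the median was -0.13. The 2 lines' responses were not tested against each other.

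Further target genes of NF-kB, a list drawn up after the values were seen, gave a mixed picture. Of 35 measured 12 read above background, with 4 at least 2-fold higher (2.36% of all genes) and 2 lower (6.34% of all genes). ICAM1, an adhesion molecule, read 9.68 and 10.90, and RIPK2, a kinase of NOD signalling, 10.64 and 11.86. CD69, an activation antigen, read 9.35 and 6.99, and IL1B, the cytokine interleukin-1 beta, 12.08 and 10.76. The cytokine and chemokine genes CXCL8, TNF, IL6, CCL2, CCL3 and CCL20 read under background on both arrays.

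The 100 bases before the RefSeq start sites of TNFAIP3 and NFKBIA are shown because these genes carry the widest differences of the pathway. The table gives assembly GRCh38.p14, and TNFAIP3 lies at chr6:137867159-137867258 on the plus strand and NFKBIA at chr14:35404750-35404849 on the minus strand, each read 5′ to 3′ towards the start. Capitals mark matches to the kappaB motif, searched on both strands.
TNFAIP3: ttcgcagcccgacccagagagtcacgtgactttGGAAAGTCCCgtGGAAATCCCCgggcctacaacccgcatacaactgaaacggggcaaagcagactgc
NFKBIA: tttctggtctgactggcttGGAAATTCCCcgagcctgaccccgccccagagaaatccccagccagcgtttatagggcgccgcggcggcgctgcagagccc
TNFAIP3 holds 2 matches in this window and NFKBIA 1. Within the 250 bases before the start the motif was found for 6 of 17 genes of the NF-kB list (35.3%) and for 9.57% of all 27305 promoters. NF-kB is known to control some genes of this list, so its share partly follows from how the list was chosen. Among all genes at least 2-fold higher the motif's share was 11.2%, beside 11.3% of all genes above background. A match describes these letters and is not a measured binding site.

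**Figure D3:**
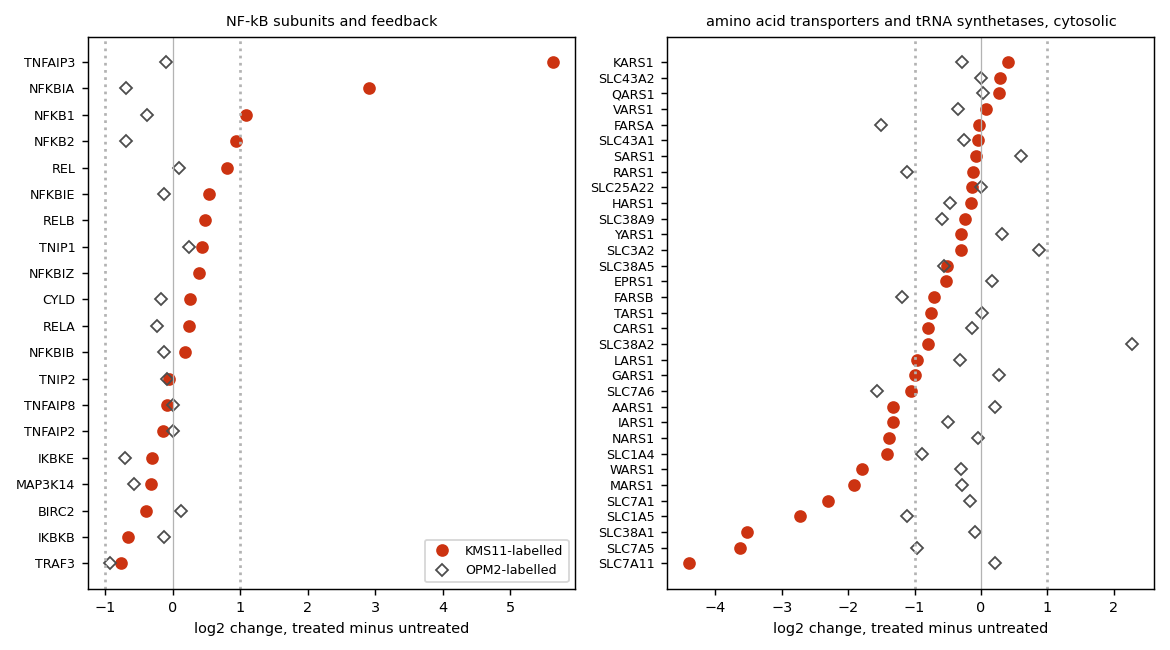
Log2 change (treated minus untreated, 1 array each) of the genes of NF-kB subunits and feedback (left) and of the amino acid transporters and cytosolic tRNA synthetases (right) in KMS11-labelled (filled circles) and OPM2-labelled cells (open diamonds); values bounded by background are drawn at the bound. TNFAIP3 lies at 5.63 against -0.10 and SLC7A11 at -4.39 against 0.21.

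Genes of mitosis read higher as a group, and genes of DNA replication lower. Of 74 G2/M and mitosis genes above background (75 measured), 33 were at least 2-fold higher and 0 lower, beside 2.36% of all genes, with a median change of 0.87. UBE2C, the ubiquitin-conjugating enzyme of the anaphase-promoting complex, read 9.41 untreated and 12.26 treated. NEK2, a centrosomal kinase, read 7.80 and 10.38. KIF18A, a kinesin of chromosome alignment, read 9.76 and 11.90. KIF20A, a kinesin of cytokinesis, read 10.81 and 12.70, and CDC20, the activator of the anaphase-promoting complex, 11.48 and 13.35. The kinase PLK1 read 13.09 and 14.89, CDK1 11.37 and 12.96, and cyclin B1 (CCNB1) 10.64 and 12.31. All 8 of these transcripts were higher on the treated array by more than 2-fold. The lower end of the list held FAM83D at -0.73 and SPC25 at -0.69, and 8 of the 74 genes read lower at all. In OPM2-labelled cells 12 members of the G2/M list were higher and 2 lower by 2-fold or more, with a median of 0.35.

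Of 54 S phase and replication genes above background (55 measured) 0 were at least 2-fold higher and 8 lower, with a median of -0.49. The nuclease EXO1 read 11.75 untreated and 10.03 treated. Cyclin E2 (CCNE2), which drives entry into S phase, read 9.10 and 7.74. TIPIN, which protects replication forks, read 10.93 and 9.59, and CDC6, which licenses origins, 11.90 and 10.62. POLE2, a subunit of polymerase epsilon, read 9.83 and 8.77, and its change falls short of 2-fold with quantile normalization or cyclic loess. MCM2 and LIG1 read 10.15 and 10.31, and 10.31 and 10.29. The share at least 2-fold lower was thus 8 of 54 beside 6.34% of all genes. In OPM2-labelled cells 25 genes of the list were at least 2-fold lower, with a median of -0.965.

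Promoters of both groups are shown because members of each list differed mostly in 1 direction, with matches in capitals. Each promoter shown holds a match, which many promoters of both lists do not, so these are examples and do not represent their lists. The G2/M genes were searched for the cell cycle homology region (TTTGAA or TTCGAA) and the S phase genes for an E2F motif (TTTGGCGC, TTTCCCGC, TTTCGCGC or TTTGCCGC), both on either strand. The 100 bases before the RefSeq start, in GRCh38.p14, lie at chr1:43358881-43358980 on the plus strand for CDC20, chr16:23678789-23678888 on the plus strand for PLK1 and chr15:59105046-59105145 on the plus strand for CCNB2. MCM6 lies at chr2:135876444-135876543 on the minus strand and PCNA at chr20:5126623-5126722 on the minus strand.
CDC20: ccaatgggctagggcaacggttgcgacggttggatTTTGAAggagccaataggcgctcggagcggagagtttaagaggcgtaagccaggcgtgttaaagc
PLK1: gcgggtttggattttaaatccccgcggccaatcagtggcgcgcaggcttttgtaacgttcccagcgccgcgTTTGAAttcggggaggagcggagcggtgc
CCNB2: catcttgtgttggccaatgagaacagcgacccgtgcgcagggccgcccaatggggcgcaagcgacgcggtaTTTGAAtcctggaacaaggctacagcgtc
MCM6: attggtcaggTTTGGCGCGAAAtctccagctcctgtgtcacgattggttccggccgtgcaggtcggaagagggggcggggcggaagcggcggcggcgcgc
PCNA: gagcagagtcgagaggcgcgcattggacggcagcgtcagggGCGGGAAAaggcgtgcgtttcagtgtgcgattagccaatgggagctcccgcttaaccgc
In MCM6 2 matches on opposite strands overlap. Within 250 bases the cell cycle homology region was found for 31 of 63 G2/M promoters (49.2%), 1 of 45 S phase promoters (2.22%) and 14.6% of all promoters. Among G2/M genes at least 2-fold higher it was found for 16 of 27 (59.3%). Among all genes at least 2-fold higher its share was 31 of 187 (16.6%), beside 10.6% of all genes above background. Those 31 genes include the 16 G2/M genes, so this share is not separate from that of the G2/M list. The E2F motif was found for 16 of 45 S phase promoters (35.6%), 4 of 63 G2/M promoters (6.35%) and 2.79% of all promoters. Among all genes at least 2-fold lower its share was 3.87%, beside 4.75% of all genes above background. CCNB2, cyclin B2, read 10.20 untreated and 11.54 treated, MCM6, a helicase subunit, 12.76 and 11.98, and PCNA, the sliding clamp, 13.60 and 12.72. MCM6 and PCNA were thus lower by less than 2-fold. The matches describe these windows, and no factor's binding was measured.

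**Figure D4:**
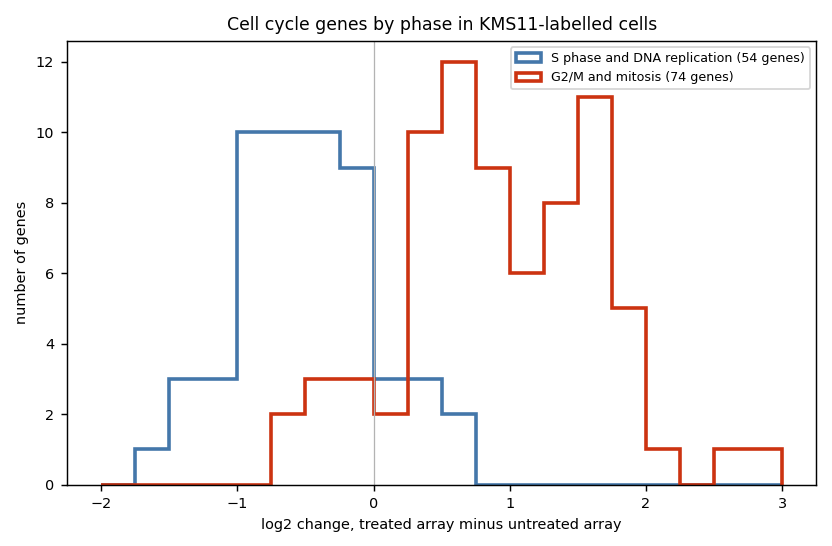
Number of genes by log2 change (treated minus untreated, bins of equal width) for the S phase and replication list (54 genes) and the G2/M and mitosis list (74 genes) in KMS11-labelled cells. The S phase genes centre on a median of -0.49 and the G2/M genes on 0.87, and the lists overlap around 0.

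DNA repair genes read lower, as the replication genes did. Of 36 above background (37 measured) 9 were at least 2-fold lower, beside 6.34% of all genes, and 0 higher, with a median of -0.53 against -0.51 in OPM2-labelled cells. After XRCC2 the lowest were NABP1, a single-stranded DNA binding protein, from 10.22 to 7.95, and FANCL, the ubiquitin ligase of the Fanconi pathway, from 11.50 to 9.63. BRCA1 read 10.80 untreated and 9.14 treated. XRCC2 changed by -0.33 in OPM2-labelled cells, and BRCA1 by -1.73. FANCF, from 7.97 to 6.60, ends near background and falls short of 2-fold with a stricter background.

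Among replication-dependent histones 5 of 24 above background (26 measured) were at least 2-fold higher, beside 2.36% of all genes, and 0 lower, with a median of 0.475. H2AC21 read 12.25 untreated and 14.05 treated, and H2AC6 9.66 and 10.96. Histone genes are near-identical to each other, so their signals may share RNA. The 2 clusters of H2BC11 gave changes of 1.10 and 0.16.

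Regulators of the G1 phase were divided. Of 17 above background 3 were at least 2-fold higher (2.36% of all genes) and 2 lower (6.34% of all genes), with a median of -0.06 that turns above 0 with quantile normalization or cyclic loess. CCND2, cyclin D2, read 12.23 untreated and 10.41 treated, and RBL1, a pocket protein, 11.62 and 10.24. HBP1, which represses genes of the cell cycle, read 8.03 and 10.05, CDKN1B (p27) 9.42 and 10.49, and CCNG2, a cyclin of resting cells, 7.05 and 8.19. CDK4 and CDK6 changed by -0.06 and -0.16. The lower genes thus were a D cyclin and a pocket protein, and the higher ones a repressor, the inhibitor CDKN1B and the cyclin CCNG2. CDKN1B and CCNG2 fall under 2-fold in some settings.

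MYC, the growth-promoting transcription factor, read 12.64 untreated and 9.81 treated, a change of -2.83, beside -1.26 in OPM2-labelled cells. MXD1, which competes with MYC for its partner MAX, read 9.16 and 10.70. MAX itself read 8.79 and 8.98. MYC was the 1 gene of its network of 9 above background that was at least 2-fold lower (6.34% of all genes). MXD1 was the 1 that was higher (2.36% of all genes).

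Of 55 genes of ribosome biogenesis and other MYC targets, each above background, 7 were at least 2-fold lower and 0 higher, with a median of -0.46 beside -0.64 in OPM2-labelled cells. RRS1, an assembly factor of the large subunit, read 9.31 untreated and 7.95 treated. NIP7, another assembly factor, read 12.04 and 10.83, and WDR43, of the small subunit processome, 13.57 and 12.43. NPM1, a nucleolar chaperone, read 13.88 and 14.03, and FBL, the methyltransferase fibrillarin, 13.40 on both arrays. A share of 7 of 55 stands beside 6.34% of all genes, and over all settings 3 to 9 genes of the list were lower by that much. Small decreases were spread over most of the list: 48 of the 55 read lower at all and 6 higher. The median change of all genes was -0.04, and the share of all genes lower at all was not counted.

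Of 25 nucleotide synthesis genes 2 were at least 2-fold lower, a share near the 6.34% of all genes, and the list median was -0.34. They were PFAS, from 10.35 to 8.77, and GART, from 12.49 to 11.44, both of purine synthesis, and GART falls short of 2-fold in some settings. The transcripts of the cytosolic ribosomal proteins themselves differed little: 0 of 34 were 2-fold apart, and their median of 0.05 turns below 0 with median centring.

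Amino acid transporters held the largest decreases among characterised genes. Of 14 transporters above background (18 measured) 7 were at least 2-fold lower, beside 6.34% of all genes, and 0 higher. Their median was -0.93, and -0.405 over all 18 with no filter and no bounds. Beside SLC7A11, SLC7A5 and SLC38A1, the glutamine transporter SLC1A5 read 12.53 untreated and 9.81 treated. SLC7A1, which carries arginine and lysine, read 11.30 and 8.99. SLC3A2, the shared heavy chain of SLC7A5 and SLC7A11, read 10.59 and 10.29, and SLC43A1 10.33 and 10.29. The light chains were thus lower by several fold while the heavy chain was within 2-fold. In OPM2-labelled cells SLC7A11 read 8.86 and 9.07, SLC38A1 14.94 and 14.85, and SLC7A5 13.63 and 12.66. The list's median there was -0.16, with 2 genes at least 2-fold lower and 1 higher, SLC38A2 by 2.28, which in KMS11-labelled cells changed by -0.80.

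Genes of the ATF4 pathway split. Of 29 above background (34 measured) 9 were at least 2-fold lower (6.34% of all genes) and 2 higher (2.36% of all genes), with a median of -0.39 against 0.00 in OPM2-labelled cells. The median in OPM2-labelled cells includes bounded changes set to 0, such as that of ATF3. PSAT1, of serine synthesis, read 14.74 untreated and 11.90 treated. PSPH, the last enzyme of that path, read 10.81 and 9.24, and PHGDH, the first, 9.96 and 8.56. ASNS, asparagine synthetase, read 11.26 and 9.85. DDIT4, an inhibitor of mTORC1, read 9.86 and 7.08, ending close to background. The 3 enzymes of serine synthesis were thus all at least 2-fold lower. ATF4 itself read 13.52 and 12.79, and its target CHAC1 read 7.76 and 6.29, a bound of -1.20 for the change. The 2 higher genes were CREBRF and PPP1R15A, the phosphatase subunit that reverses the stress signal, from 6.97 to 8.44. PSAT1 changed by 0.07 in OPM2-labelled cells, PHGDH by 0.26 and ASNS by 0.44.

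All 19 measured cytosolic tRNA synthetases read above background, and 6 were at least 2-fold lower, beside 6.34% of all genes, and 0 higher, with a median of -0.70 against -0.29 in OPM2-labelled cells. MARS1, for methionine, read 11.99 untreated and 10.08 treated. WARS1, for tryptophan, read 13.05 and 11.26, and NARS1, for asparagine, 14.91 and 13.53. HARS1, FARSA, VARS1 and SARS1 stayed within 0.15 of no change. The differences were thus uneven among the enzymes. MAT2A, which makes S-adenosylmethionine from methionine, read 14.68 and 11.70, against a change of -1.28 in OPM2-labelled cells.

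Genes known to be raised by FOXO factors and in growth restraint were higher. Of 26 above background (33 measured) 9 were at least 2-fold higher and 0 lower, beside 2.36% of all genes, with a median of 0.72. This list, like the others, was chosen with earlier results of these data known. Its share therefore describes the chosen genes and is no independent support for a shift of the group. Beside ARRDC3, CREBRF and HBP1, KLHL24, an adaptor of a ubiquitin ligase, read 8.62 untreated and 10.44 treated. KLF6, a zinc finger factor, read 7.53 and 9.23. TXNIP, an arrestin that restrains glucose uptake, read 13.48 and 14.74, and SESN3, a stress protein of the mTORC1 pathway, 10.98 and 12.32. The factors FOXO3 and FOXO4 themselves changed by -0.17 and 0.07. In OPM2-labelled cells the list's median was 0.65, with 7 genes at least 2-fold higher and 2 lower. There CREBRF was higher by 4.08, HBP1 and KLHL24 by 3.57 each and ARRDC3 by 1.79, so these 4 genes were higher in both lines.

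Feedback genes of ERK signalling were dim and lower. Of 8 above background (19 measured), 4 of them on both arrays, 3 were at least 2-fold lower, beside 6.34% of all genes, and 0 higher. SPRED1, an inhibitor of RAS activation, read 8.40 untreated and 6.86 treated. SPRED2 read 7.69 and 6.34 and ETV5 7.56 and 6.03, both ending under background, with bounds of -1.13 and -1.0 for the change. DUSP6, the ERK phosphatase, read 7.13 and 6.0, a bound of -0.57. SPRY2 read 7.89 and 7.93. With the background at the 99th percentile the list's median moved from -0.77 to -0.17 over 6 genes, so its size rests on where background is set. SOS1, the exchange factor that activates RAS, read 15.18 and 12.84.

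Among AP-1, KLF and EGR factors 4 of 18 above background were at least 2-fold higher (2.36% of all genes) and 3 lower (6.34% of all genes), and the latter count ran from 0 to 4 over the alternative settings, such as a background at the 99th percentile. ZFP36, which destabilises cytokine messages, read 7.01 untreated and 9.38 treated. KLF11 read 9.51 and 11.23, and KLF10 7.99 and 9.55, both repressors known from TGF-beta signalling. JUND read 8.21 and 7.01, a change of -1.20 that becomes a bound of -0.67 with that stricter background. EGR1, an early response factor, was at background, 6.59 and 5.59. DUSP10, a phosphatase of the stress kinases, read 8.22 and 9.93, with a like change of 1.59 in OPM2-labelled cells, whereas ZFP36 changed there by -0.42.

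Of 23 cytokine receptor, JAK-STAT and PIM genes 4 were at least 2-fold lower (6.34% of all genes) and 1 higher (2.36% of all genes). PIM1, a survival kinase induced by STAT5, read 14.83 untreated and 12.92 treated. PIM2 read 11.70 and 10.22. IL6ST, the shared receptor chain gp130, read 10.05 and 11.19. JAK1 and TYK2 changed by -0.02 and 0.08. In OPM2-labelled cells PIM1 was higher by 1.53, and PIM2 changed by -0.44.

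Of 15 BCL2 family genes above background 3 were at least 2-fold lower, beside 6.34% of all genes, and 0 higher, with a median of -0.20. BCL2, an inhibitor of cell death, read 9.71 untreated and 7.80 treated, and MCL1, another, 12.05 and 10.90. PMAIP1 (NOXA), which opposes MCL1, read 9.36 and 8.32, and its change of -1.04 becomes -0.82 with quantile normalization. BCL2L1 (BCL-xL) read 9.33 and 8.39, short of 2-fold. BAK1, a death effector, changed by -0.18. The lower genes thus included both inhibitors of death and 1 of their antagonists.

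Of 20 p53 target genes above background 3 were at least 2-fold lower, beside 6.34% of all genes, and 0 higher: the death receptor TNFRSF10A from 9.52 to 7.79, PMAIP1, and SESN2 from 7.67 to 6.65. SESN2 ended next to background, its change of -1.02 becomes a bound of -0.13 where background is the 99th percentile, and over all settings 1 to 4 genes of the list were lower and 0 to 2 higher. CDKN1A (p21), the best known target, read under background on all 4 arrays. TP53INP1 read 7.21 and 8.17, and CCNG1 13.87 and 14.81, both short of 2-fold.

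The lineage genes differed gene by gene. Of the 17 erythroid transcription factors 4 were at least 2-fold lower and 0 higher, with a median of -0.27. NFE2 read 9.19 untreated and 8.0 treated, TAL1 9.38 and 8.25, LMO2 9.07 and 7.95, and GATA2 11.94 and 10.86. All 4 lay close to 2-fold, and each falls short of it in at least 1 of the alternative settings. KLF1, which drives late red cell genes, read 9.11 and 9.94. MYB read 13.31 and 13.58, LDB1 15.86 and 15.55, and GFI1B 9.55 and 9.75. The share of 4 of 17 stands beside 6.34% of all genes.

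Single red cell and haem genes read higher, while most of the membrane list did not. Of 16 red cell membrane and receptor genes above background 10 read lower and 6 higher at all, with a median of -0.13, and of 20 haem genes 9 read lower and 11 higher, with a median of 0.165. ALAS2, the red cell enzyme that starts haem synthesis, read 7.61 untreated and 8.79 treated. SLC25A38, the mitochondrial glycine carrier, read 9.16 and 10.29. ERMAP, a blood group membrane protein, read 8.25 and 9.58, and EPB42 6.47 and 7.58, the first value at background, with a change of 0.16 as a bound where background is the 99th percentile. These were the 2 haem genes and the 2 membrane genes at least 2-fold higher, beside 2.36% of all genes, and 0 of either list were lower by that much. ANK1, the ankyrin of the red cell membrane, read 11.37 and 10.57. SLC40A1, the iron exporter ferroportin, read 14.84 and 13.59.

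Of 18 basophil and mast cell genes above background (30 measured) 1 was at least 2-fold higher (2.36% of all genes) and 3 lower (6.34% of all genes). KIT, the receptor of stem cell factor, read 10.88 untreated and 12.66 treated. CPA3, a mast cell protease, read 9.74 and 10.73. SLC18A2, which loads amines into granules, read 8.55 and 7.19, and HPGD, which inactivates prostaglandins, 12.68 and 11.38. HPGDS, CSF2RB and PRG2 changed by -0.21, -0.79 and -0.82. Of 15 megakaryocyte and platelet genes above background (20 measured) 2 were at least 2-fold higher (2.36% of all genes) and 4 lower (6.34% of all genes). PLEK, the protein kinase C substrate pleckstrin, read 12.38 and 14.55, while SELP, P-selectin, read 9.35 and 8.01. PPBP, a platelet chemokine, was higher by at least 1.11. Of 17 myeloid granule and monocyte genes above background 0 differed 2-fold, with CD68 at 0.91 and AIF1 at -0.89 the widest. Of the 15 plasma cell genes above background ELL2 changed by 1.32, PIM2 by -1.48, XBP1 by -1.14 and JCHAIN by 0.74. No lineage list had a median as far from 0 as the G2/M list.

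Sterol genes were higher at single steps. Of 24 genes of cholesterol synthesis and uptake above background (27 measured) 4 were at least 2-fold higher, beside 2.36% of all genes, and 0 lower, with a median of 0.125. MSMO1, a demethylating oxidase, read 10.67 untreated and 13.02 treated. HMGCS1, the enzyme just before HMG-CoA reductase, read 12.72 and 14.17. CYP51A1, the lanosterol demethylase, read 12 and 13.26, and INSIG1, which holds back sterol control, 10.26 and 11.26. ACAT2 and PMVK changed by 0.03 and 0.01. In OPM2-labelled cells 1 gene of the list was at least 2-fold higher and 6 lower, with a median of -0.52. Of 16 fatty acid genes 2 were at least 2-fold lower, beside 6.34% of all genes. They were ELOVL6, from 11.96 to 10.68, and FASN, from 10.39 to 9.27, while SCD read 15.24 and 15.23. FASN and INSIG1 fall short of 2-fold in at least 1 alternative setting. Over all settings 3 to 4 sterol genes were at least 2-fold higher and 1 to 3 fatty acid genes at least 2-fold lower.

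Several housekeeping groups stayed within 2-fold. Of 34 nuclear genes of the respiratory chain 0 differed 2-fold and 33 read higher by a small amount, with a median of 0.22. The median was -0.04 over all genes above background and 0.14 among the olfactory receptor genes, with an SD of 0.329 among the latter. So small a difference may lie within the offset between the 2 arrays. Of 21 reference transcripts 0 differed 2-fold, with a median of -0.06. Antigen presentation genes read slightly higher without passing 2-fold in any of 18, with a median of 0.315: B2M, the light chain of class I molecules, read 14.92 untreated and 15.78 treated, and HLA-B 9.27 and 10.01. In OPM2-labelled cells that median was -0.43. Of 39 autophagy and lysosome genes 2 were at least 2-fold higher, beside 2.36% of all genes. They were RRAGC, a GTPase of amino acid sensing, from 9.17 to 10.70, and ATP6V1H, a proton pump subunit, from 8.63 to 9.85. NQO1, an antioxidant enzyme under NRF2, read 7.62 and 8.94, and TXNRD1, another, 10.29 and 10.27, while SLC7A11 belongs to the same list.

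**Figure D5:**
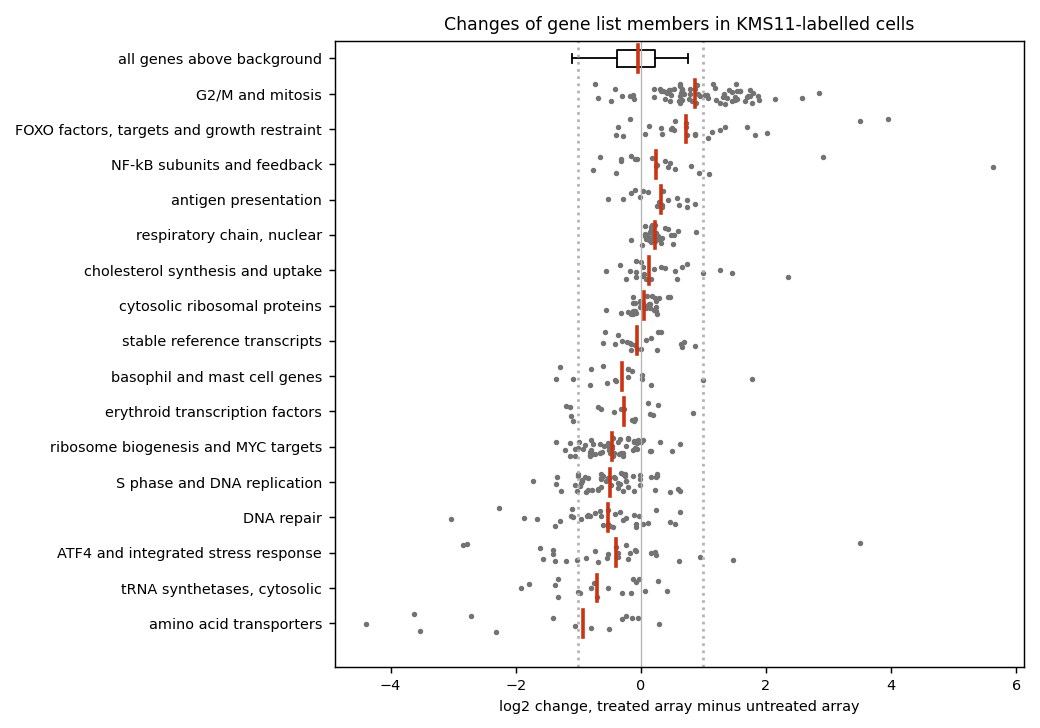
Log2 change (treated minus untreated) of every gene above background in 16 gene lists in KMS11-labelled cells, 1 point a gene, with the list's median as a red bar; the box at the top spans the quartiles of all genes above background and its whiskers the 5th to 95th percentiles, and dotted lines mark 2-fold. The G2/M list has a median of 0.87 and the amino acid transporters of -0.93, and the reference transcripts sit at -0.06.

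Splicing factors were among the abundant genes that differed. Of 27 SR proteins, CLK kinases and hnRNPs 5 were at least 2-fold lower (6.34% of all genes) and 2 higher (2.36% of all genes). SRSF1 read 15.36 untreated and 13.08 treated, TRA2B 11.53 and 9.95, and SRSF5 13.91 and 12.49. The kinase CLK1, which phosphorylates such proteins, read 11.16 and 12.83, and CLK2 10.83 and 9.42. SRSF7 changed by 0.01, and CLK1 in OPM2-labelled cells by 2.25.

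Other genes with wide differences had varied roles. GPR65, a proton-sensing receptor, read 12.63 untreated and 10.14 treated, and UBASH3B, a phosphatase that restrains receptor signalling, 12.51 and 9.73. HES1, a repressor downstream of Notch, read 9.17 and 6.74. ULBP1, a ligand of the NK cell receptor NKG2D, read 9.14 and 6.61, next to background. EPAS1, the hypoxia factor HIF-2 alpha, read 9.64 and 7.23. STK17B, a kinase linked to cell death, read 9.55 and 11.61, and TOX, a chromatin factor, 7.11 and 9.23. GPR65, HES1, EPAS1 and TOX read under background in OPM2-labelled cells, so their changes there are unknown. CD24, GOLGA8Q and GOLGA8R, each at least 4-fold lower, have near-identical copies in the genome, so which copy gave the signal is uncertain.

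MicroRNA genes were seen through clusters that cover their precursors or host transcripts, since sense-strand labelling of total RNA does not measure mature microRNAs. Above background on both arrays, 17 differed by 2-fold or more, 3 higher and 14 lower. These 17 were picked by that difference, and the number of microRNA genes above background is not given here. No share can therefore be set beside the 2.48% higher and 6.6% lower among all genes above background on both arrays. MIR142, a gene of blood cells, read 10.32 untreated and 7.61 treated. MIR223, a myeloid gene, read 9.79 and 5.59, a bound of -3.23 for the change. MIR181B1 read 12.56 and 10.35, and MIR4521 9.96 and 7.04. The widest increase was that of MIR4742, from 7.62 to 9.69. MIR142 and MIR4521 were also lower in OPM2-labelled cells, where the bounds were -4.38 for MIR142 and -2.80 for MIR4521. Mature sequences of the 4 genes named here as lower are shown from RefSeq to identify them, with the seed (bases 2 to 8) in capitals.
hsa-miR-142-3p: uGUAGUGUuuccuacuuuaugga
hsa-miR-142-5p: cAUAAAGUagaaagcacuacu
hsa-miR-223-3p: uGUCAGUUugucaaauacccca
hsa-miR-181b-5p: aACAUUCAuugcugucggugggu
hsa-miR-4521: gCUAAGGAaguccugugcucag
No 2 of the matched mature sequences shared a seed. In GRCh38.p14 miR-142-3p lies at chr17:58331245-58331267 on the minus strand and miR-223-3p at chrX:66018937-66018958 on the plus strand. Levels of the mature forms were not measured here.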

How the data were processed

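RNA of 4 cultures was measured on whole-transcript arrays, after extraction as total RNA and labelling as sense-strand DNA per the labels' protocols. The authors deposited log2 signals. Per the submitters' processing notes, their tool was the Transcriptome Analysis Console. How signals were summarized and normalized, and on which build, is not given in the sources used here. Their range, 2.49 to 19.74, gave the log2 scale. Number and signal of the arrays limit the precision.

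Of 65528 transcript clusters, 22755 carry 1 gene symbol in the array annotation, 1389 several and 41384 none. Symbols were updated with RefSeq genes of GRCh38.p14. Where a gene had several clusters (345 genes), that with the highest 4-array mean stood for it. Background on an array was the 95th percentile of its 392 olfactory receptor genes. Changes are differences of the deposited values (Python 3.11.15, pandas 2.3.3), and genes at least 2-fold apart were counted. Differences and bounds were tested on simulated data. No test was possible with 1 array per condition.

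The arrays, the 52 gene lists and the naming rule were chosen with earlier results of these data known. The rule names the 20 largest changes each way, PAK4, NAMPT, MYC, up to 5 list members with the largest change and up to 2 with the smallest, erythroid and basophil genes and microRNA genes. Further list members given as examples, such as PLK1, CDK1, CCNB1, CCNB2, MCM6, PCNA, TXNIP, SESN3, SLC3A2, ATF4 and RELA, and the genes of the label check were chosen after their values were seen. Alternatives were quantile normalization and cyclic loess (limma 3.58.1), median centring, other filters, no bounds, a 99th percentile background and the mean of a gene's clusters. Motifs were searched in RefSeq promoters.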

Additional observations from a re-analysis of the deposited data

Results flagged for a closer look

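For 6 named genes the single treated array read at least 2-fold higher in 1 line and at least 2-fold lower in the other, and the difference was not tested, since each line has 1 array per condition. BCL2 changed by -1.91 in KMS11-labelled cells and by 1.0 in OPM2-labelled cells. PIM1 changed by -1.91 and 1.53. PMAIP1, an antagonist of MCL1, changed by -1.04 and 1.20, the first of these under 2-fold in some alternative settings. CYP51A1, of sterol synthesis, changed by 1.26 and -1.43. The histone gene H2BC10 changed by 1.30 and -1.04. MIR548X changed by -1.28 and 1.07, and its cluster is placed on chromosome 16 in the array's design while RefSeq places the gene on chromosome 21, so its name is uncertain.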

How the results depend on the processing

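No paired analysis was possible because each condition has 1 array and the labels carry no replicate numbers, and no array could be left out. Of the 156 named genes at least 2-fold apart, 123 stayed so under every alternative that gave a value and 33 fell short of 2-fold in at least 1. Quantile normalization gave 421 genes at least 2-fold higher in place of 256, and 459 lower in place of 688; every one of the 256 was among the 421, and 459 of the 688 stayed. It moved the median change of all genes from -0.04 to 0.09, and median centring moved it to -0.12. With no filter and no bounds the median of the myeloma translocation genes turned from -0.52 to 0.13, as 5 genes under background entered, and that of the amino acid transporters became -0.405, that of the ERK feedback genes -0.33 and that of the blood microRNA genes -0.34. With the background at the 99th percentile, which leaves fewer genes, the medians became -0.17 for the ERK feedback genes, 0.54 for the stress kinase phosphatases (2 genes), -0.83 for the BCL2 family (9 genes) and -2.25 for the blood microRNA genes (5 genes). The last list gave -1.73 with no bounds and -1.82 with the mean of clusters. The G2/M median ranged from 0.79 to 1.04, with 30 to 38 genes at least 2-fold higher, and the S phase median from -0.57 to -0.38, with 4 to 12 lower. Genes near background are known only as bounds.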
